A study of Homo sapiens with 12 samples.

Results

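HUH6, an established human cell line from a hepatoblastoma, is described here as it stands when transfected with a non-targeting (NT) control siRNA. The 6 NT siRNA samples, replicates 1 to 6, were taken by their labels out of 12 samples in the series; the other samples received siRNA against the transcription factor GATA4 and enter no comparison below. NT siRNA was given at 0.1 uM with a lipid reagent for 6 h, and RNA was extracted 72 h after transfection began. All 6 samples therefore carry the transfection itself, and no untransfected cells are described. The labels do not say whether the replicates came from separate cultures, so the spread given below is that between these 6 samples and may be technical. A single cell line was used, so nothing here speaks for hepatoblastomas in general.

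Hepatoblastoma is a liver tumour of early childhood whose cells resemble hepatoblasts, the fetal progenitors of hepatocytes and bile duct cells. Hepatoblasts make alpha-fetoprotein and many plasma proteins, while most drug-metabolising enzymes, bile acid enzymes and bile transporters come up as hepatocytes mature. Mutations that stabilise beta-catenin, the effector of Wnt signalling, are frequent in this tumour, and so is raised expression of the imprinted growth factor gene IGF2.

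Labelled RNA was read on Illumina HT-12 expression beadchips, which give 1 brightness, here called the raw signal, for each probe. A detection p-value compares each probe with the negative control beads of its own array. A gene is called detected when at least 1 of its probes had a detection p under 0.01 on all 6 arrays, and not detected when no probe had this on any array. "Not detected" means not above background at the probes used and does not show that the RNA is absent. Each array detected 16067 to 16617 of 48106 probes, and the lowest detected raw signal was 136.1 to 140.2. Genes were ranked by mean log2 signal after background correction and quantile normalisation, from 1 (brightest) to 20045. A rank orders the brightness of probes, which also depends on the probe, so no fold between genes is given. Where 3 raw signals stand together, they are the lowest, the median and the highest of the 6 arrays. In RNA from whole cultures, fewer cells expressing a gene and less RNA per cell cannot be told apart.

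The 6 arrays fell into 2 sets, replicates 4 to 6 and replicates 1 to 3. Pearson's r across the 48106 probes, which are not independent, was 0.9944 to 0.9950 within the sets and 0.9904 to 0.9917 between them, and the first principal component of the detected probes, with 68.4% of the variance, separated them. The labels give no chip, date or batch for these sets. Of 9474 genes detected at their brightest probe, the signals of replicates 4 to 6 lay wholly above those of replicates 1 to 3 for 26.1% and wholly below for 23.6%, so 49.7% did not overlap. The sets were seen in the data and carry no label, so they are described and not tested; 3 arrays against 3 could not give an exact p under 0.1. The part the sets play in any value below was not tested. Values of single genes are given for both sets where they differ widely.

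Of the 4 hepatoblastoma markers, AFP, GPC3 and ALB were detected on every array and DLK1 on none. AFP, alpha-fetoprotein, the main serum protein of the fetal liver, had raw signals of 16071, 16909 and 18287. Its mean log2 signal was 14.04 ± 0.09 (SD, n = 6) and it ranked 38 of 20045 named genes, with a range of 20 to 63 on single arrays. GPC3, glypican-3, a cell surface proteoglycan of fetal liver and liver tumours, had raw signals of 9673, 9919 and 10939, a mean log2 signal of 13.29 ± 0.06 (SD, n = 6) and rank 147. These markers stood within the brightest 1% of genes on the mean of the 6 arrays, AFP at 0.19% and GPC3 at 0.733%. ALB, albumin, the main plasma protein of the adult liver, had raw signals of 3547, 3745 and 3984, a mean log2 signal of 11.84 ± 0.06 (SD, n = 6) and rank 630, in the brightest 3.14%. A further ALB probe was also detected on all 6 arrays. DLK1, an imprinted membrane protein of hepatoblasts, was at background: its 2 probes read 98.2 to 113.8 and 95.2 to 106.8, with no detection p under 0.34026. The markers given for these cells were therefore met for AFP, GPC3 and ALB and not for DLK1. AFP and ALB are neighbours on chromosome 4, and their start regions are shown because both genes were bright. The RefSeq sequences on GRCh38.p14 run from 250 bases before to 50 after the start of each gene, for AFP at chr4:73435971-73436270 and for ALB at chr4:73404037-73404336, both on the plus strand. Capitals mark matches, on either strand, to TTNNGNAA, a form of the C/EBP consensus, and to TATAAA, the TATA box.
AFP: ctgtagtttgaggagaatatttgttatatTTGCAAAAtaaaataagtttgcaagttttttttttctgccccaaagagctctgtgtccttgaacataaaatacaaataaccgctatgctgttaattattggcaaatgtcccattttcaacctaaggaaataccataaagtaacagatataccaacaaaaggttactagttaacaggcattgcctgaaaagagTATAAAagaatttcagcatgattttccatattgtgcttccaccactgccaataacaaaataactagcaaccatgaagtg
ALB: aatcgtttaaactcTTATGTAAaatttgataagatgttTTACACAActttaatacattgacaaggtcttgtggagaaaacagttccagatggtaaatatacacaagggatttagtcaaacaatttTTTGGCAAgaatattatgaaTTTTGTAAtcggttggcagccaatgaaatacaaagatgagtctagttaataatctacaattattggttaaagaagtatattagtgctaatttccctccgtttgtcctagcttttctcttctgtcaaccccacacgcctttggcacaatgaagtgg
The AFP window held 1 TTNNGNAA match on the minus strand at -221 and TATAAA at -29, and the ALB window held TTNNGNAA at -236, -125 and -105 on the plus strand and at -212 on the minus strand. The position is that of the leftmost base of the match, counted from the start site. Of all 27305 RefSeq windows of this length, 37.2% held TTNNGNAA and 12% held TATAAA. Among the 9 liver lists described below, 142 of 188 genes had a window; TTNNGNAA was held by 41.4% of the 87 windows of detected genes, 23.1% of the 13 windows of genes detected on some arrays and 64.3% of the 42 windows of genes not detected. The shares with TATAAA were 24.1%, 23.1% and 38.1% in the same order. A match describes the letters only.

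**Figure D1:**
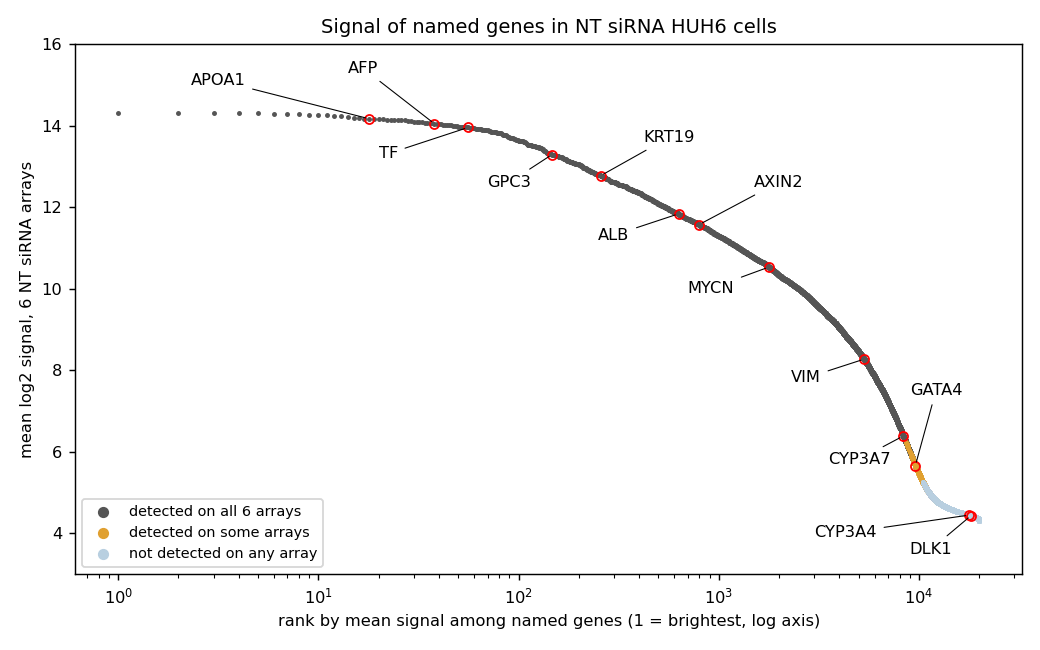
Mean log2 signal over the 6 NT siRNA arrays (y axis) of all 20045 named genes by rank (x axis, log scale), coloured by detection, with 13 genes ringed and named. AFP, at rank 38, stood near the top of the curve, and DLK1 and CYP3A4 stood at its lower end among the genes not detected on any array.

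Among 35 fetal liver, oncofetal and imprinted genes, 21 (60%) were detected, 5 on some arrays and 9 on none. Of all 20045 named genes, 47.3% were detected and 44.6% were not detected on any array. The brightest after AFP were surface and progenitor genes. EPCAM, an adhesion molecule of hepatic progenitors, ranked 107 with raw signals of 11426, 12588 and 13013. KRT19, a keratin of bile ducts and progenitors, ranked 257, and CD24, a surface glycoprotein of progenitors, ranked 267. Raw signals of KRT19 were 6332, 7219 and 7818, and those of CD24 were 6380, 6936 and 7443. Oncofetal RNA-binding proteins were detected too: LIN28A, which blocks maturation of let-7 microRNAs, had raw signals of 2825, 3117 and 3304 and rank 814, and IGF2BP2 and IGF2BP3, which bind IGF2 mRNA, ranked 834 and 2260. Their relative IGF2BP1 passed on 5 arrays only. LIN28B was dim and uneven, with raw signals of 223.9, 248.5 and 217.9 in replicates 4 to 6 against 140.6, 158.4 and 152.0 in replicates 1 to 3. Every array of replicates 4 to 6 was above every array of replicates 1 to 3, with a difference in mean log2 signal of 1.32.

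Imprinted genes ranged from bright to background. PEG3, a zinc finger gene expressed from the paternal allele, had raw signals of 3148, 3835 and 4535 and rank 618, with overlapping sets. PEG10, a paternally expressed gene of retrotransposon origin, had raw signals of 1158, 1323 and 1028 in replicates 4 to 6 and 1985, 1843 and 2152 in replicates 1 to 3, a difference in mean log2 signal of -0.78. IGF2, the fetal growth factor, was at the edge of background. The brightest of its 3 probes read 144.6, 144.6 and 147.5 in replicates 4 to 6 and 119.1, 120.0 and 127.0 in replicates 1 to 3, and was detected on 3 of 6 arrays. H19, the noncoding RNA next to IGF2, had raw signals of 113.0, 127.3 and 146.2 and was detected on 1 array. PLAGL1, a growth-regulating zinc finger gene, was also detected on 1 array. The imprinted genes MEG3, a noncoding RNA of the DLK1 domain, MEST and NNAT were not detected on any array, with lowest detection p-values of 0.03377, 0.22857 and 0.02078. The fetal and embryonic globin genes HBG1, HBG2, HBZ and HBE1 were at background as well.

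**Figure D2:**
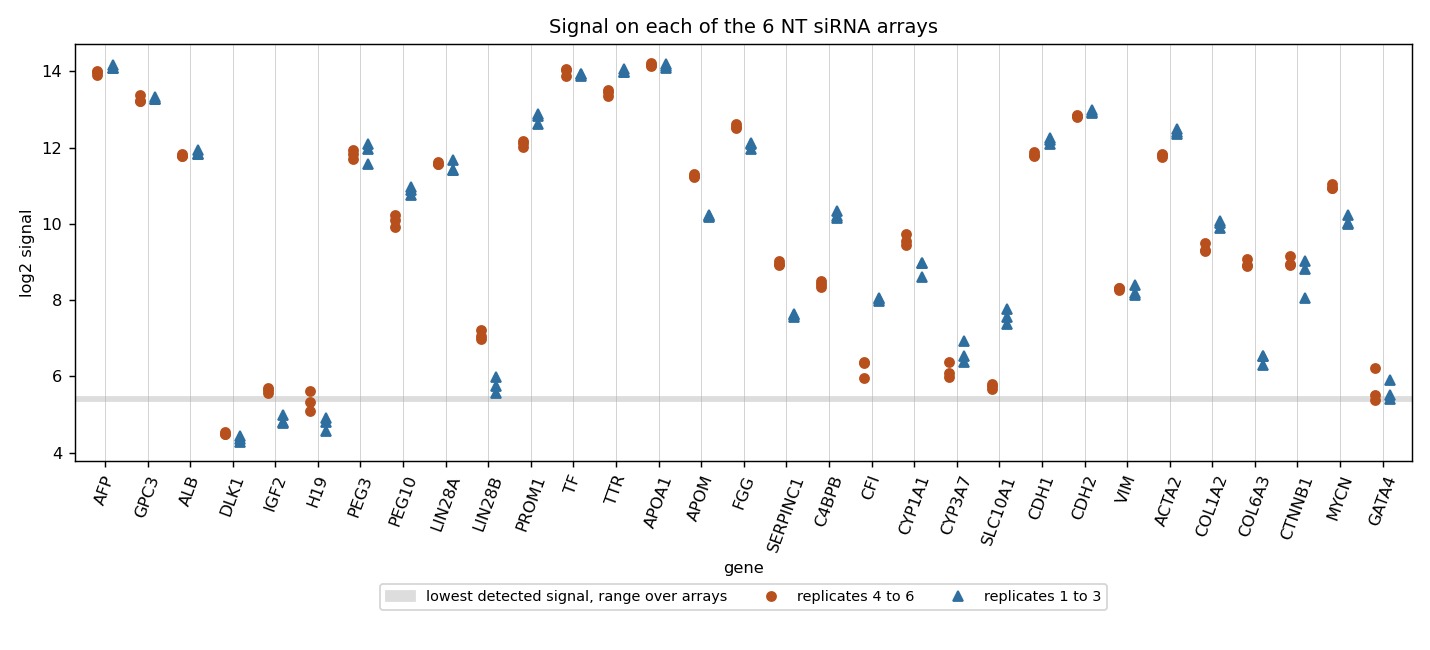
Log2 signal (y axis) of 31 genes (x axis) on each NT siRNA array, with replicates 4 to 6 as circles on the left and replicates 1 to 3 as triangles on the right of each gene. The grey band is the range over arrays of the lowest detected signal; DLK1 lay below it on all 6 arrays, IGF2 and GATA4 lay close to it, and COL6A3 and SERPINC1 were higher in replicates 4 to 6.

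The 20 brightest genes held 1 liver product, APOA1, the main protein of high-density lipoprotein, at rank 18. Ribosomal and translation genes made up most of the rest: RPS12, EEF1A1, NACA, RPL41, RPS29, RPL18, RPL6, TPT1, RPL32, RPL10A and RPS20, with mean log2 signals between 14.16 for RPS20 and 14.31 for RPS12. FTL, the ferritin light chain, ranked 4, and the actin gene ACTG1 ranked 6. S100A10, a partner of annexin A2, ranked 9, and ATP5F1B, a subunit of ATP synthase, ranked 12. The other 4 were F2R, LAIR1, CLEC2D and RPSAP9, and their probes disagreed widely. F2R, the thrombin receptor, read a mean log2 signal of 14.26 at 1 probe and 7.83 at the other, LAIR1, a leukocyte receptor, read 14.24 and, at a probe not detected on any array, 4.74, and CLEC2D, a lectin-like receptor, read 14.16, 6.02 and, at 3 probes not detected, 4.46 to 4.49. The pseudogene RPSAP9 read 14.18 and 5.39. Probes of several of the ribosomal genes disagreed as widely. RPL41 read 14.30 and, at a probe detected on 1 array, 5.03, RPL10A read 14.17 and 7.13, and RPL32 read 14.19, 6.76, 5.77 and, at a probe not detected on any array, 4.81. RPL6 and RPS29 each had a detected probe far below the brightest, at 9.77 and 9.48. The rank of every gene is that of its brightest probe alone.

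Over 24 gene lists with 476 measured genes, 262 (55%) were detected, 34 were detected on some arrays and 180 on none. Of the listed genes, 95 stood in the brightest 10% of all genes and 24 in the brightest 1%. The 9 lists of hepatocyte functions held 188 measured genes, of which 112 (59.6%) were detected, 14 on some arrays and 62 on none. Beside the 47.3% of all named genes, the share detected ran between 30% for bile acid and transporter genes and 76.5% for apolipoprotein genes; the lists were not tested against it.

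**Figure D3:**
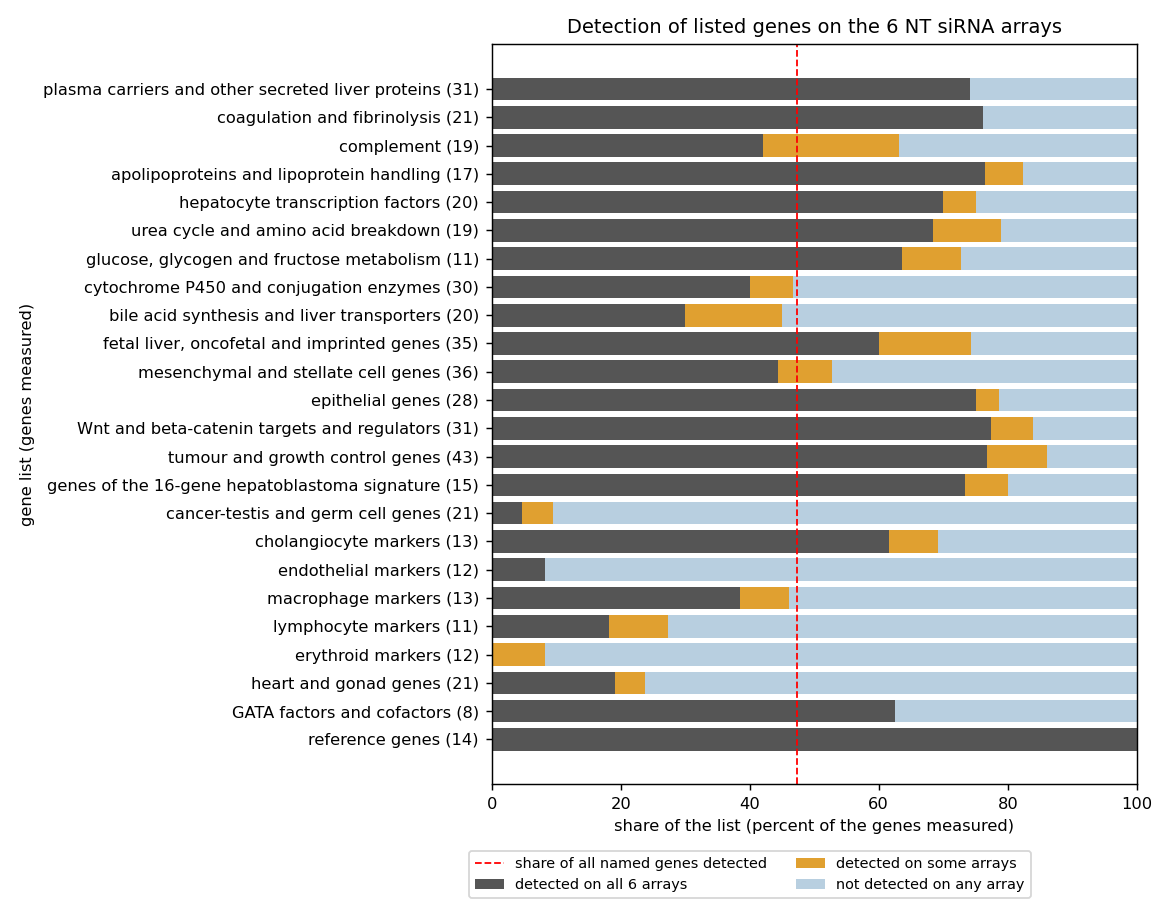
Share of the measured genes of each list (x axis, percent) that were detected on all 6 arrays (dark), on some (orange) and on none (light blue), with the number of genes measured in brackets. The dashed line marks 47.3%, the share of all named genes detected; coagulation (76.2%) and apolipoprotein genes (76.5%) lay above it, and bile acid and transporter genes (30%) below it.

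Of 31 plasma carriers and other secreted liver proteins, 23 (74.2%) were detected and 8 were not, and 11 stood in the brightest 10%. TF, transferrin, the iron carrier of plasma, had raw signals of 14687, 15532 and 17527 and rank 56. SERPINA1, alpha-1-antitrypsin, an elastase inhibitor, ranked 81 with raw signals of 13997, 14422 and 14896, at the brightest of 4 probes, of which 2 were not detected on any array. AHSG, fetuin-A, a calcium-binding protein that is abundant in fetal plasma, ranked 84. These genes varied little, with SDs of the log2 signal of 0.08 for TF, 0.04 for SERPINA1 and 0.10 for AHSG. TTR, transthyretin, the thyroid hormone and retinol carrier, ranked 89 and had raw signals of 11473, 11118 and 12048 in replicates 4 to 6, all below the 15958, 15944 and 17014 of replicates 1 to 3. AGT, angiotensinogen, ranked 494.

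The same list held genes that differed widely between arrays. VTN, vitronectin, an adhesive plasma protein, had raw signals of 434.0, 382.6 and 422.3 in replicates 4 to 6 and 886.0, 945.3 and 942.4 in replicates 1 to 3, a difference in mean log2 signal of -1.34. HPX, the heme carrier hemopexin, was likewise lower in replicates 4 to 6, with 329.3, 360.5 and 337.7 against 599.8, 637.9 and 666.1 in replicates 1 to 3. A2M, a broad protease inhibitor, lay the other way, with 440.2, 461.1 and 412.6 in replicates 4 to 6 and 349.1, 301.7 and 337.0 in replicates 1 to 3. The 8 genes at background were CP, the copper protein ceruloplasmin, HRG, ITIH3, ITIH4 and SAA4, the acute-phase genes SAA1 and CRP, and the iron gene HAMP. Their brightest probes read at most 139.4, for HRG, whose lowest detection p of 0.01039 just missed the threshold, and CP read 99.9 to 116.0. CRP and SAA1 are induced in liver by inflammatory cytokines, and HAMP makes hepcidin, the hormone of iron balance.

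FGA and FGG led the coagulation list, in which 16 of 21 genes (76.2%) were detected and 5 were not. FGA, FGG and FGB encode the 3 chains of fibrinogen. FGA had raw signals of 4881, 5274 and 5755 and rank 403, FGG ranked 410 and FGB ranked 1190. FGG read 6346, 6220 and 6025 in replicates 4 to 6 and 4529, 4386 and 4127 in replicates 1 to 3, without overlap. PROS1, protein S, a cofactor of anticoagulation, ranked 1170, and KNG1, the kinin precursor kininogen, ranked 1335. SERPINC1, antithrombin, had the widest spread of this list, with raw signals of 577.6, 628.1 and 559.7 in replicates 4 to 6 against 290.4, 282.7 and 302.4 in replicates 1 to 3, a difference in mean log2 signal of 1.37. SERPIND1, heparin cofactor II, and F2, prothrombin, were also higher in replicates 4 to 6, by 0.47 and 0.41. Not detected on any array were F9 and F11, factors of the intrinsic pathway, F13B, a subunit of factor XIII, KLKB1, prekallikrein, and PLG, plasminogen. PLG read 98.4 to 111.8 and F9 read 115.0 to 122.8.

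Of 19 complement genes, 8 (42.1%) were detected, near the 47.3% of all named genes, 4 on some arrays and 7 on none. With detection on at least 3 arrays the count was 11. CFB, factor B of the alternative pathway, ranked highest of this list at 1352, with raw signals of 1771, 2061 and 2254. C1S, a protease of the classical pathway, ranked 3369, C5 ranked 4263 and C2 ranked 5773. C4BPB, a chain of the C4b-binding protein, had raw signals of 424.0, 467.7 and 411.0 in replicates 4 to 6 and 1224, 1280 and 1436 in replicates 1 to 3. CFI, factor I, which cleaves C3b and C4b, read 156.4, 181.1 and 175.3 in replicates 4 to 6 and 342.6, 357.9 and 369.4 in replicates 1 to 3. For both genes every array of replicates 4 to 6 was below every array of replicates 1 to 3, with differences in mean log2 signal of -1.80 and -1.78; C4BPA, the other chain, differed by -1.26. C3, the central component, was not detected at either of its 2 probes, the brighter of which read 119.5 to 132.6, and C4A, C6, C8G, C9, MASP1 and MBL2 were at background too. C8A, C1R and MASP2 were detected on 3 arrays each and C8B on 1.

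Apolipoprotein genes were the brightest of the liver lists, with 5 of 17 genes in the brightest 1% and 13 (76.5%) detected. APOA1 had raw signals of 17328, 18428 and 19090, APOA2, the next protein of high-density lipoprotein, had 13672, 14076 and 14516, and APOB, the scaffold of very-low-density lipoprotein, had 10586, 10857 and 11610. Their ranks were 18, 85 and 133. APOE, a ligand of lipoprotein receptors, ranked 168, and APOC1 ranked 191. The spread of APOA1 was narrow, with an SD of 0.04 on the log2 scale. APOM, a lipocalin of high-density lipoprotein, read 2486, 2591 and 2536 in replicates 4 to 6 against 1295, 1284 and 1315 in replicates 1 to 3, and APOA5, which raises lipolysis of triglyceride, read 383.1, 382.3 and 359.1 in replicates 4 to 6 against 217.8, 233.8 and 216.5 in replicates 1 to 3. MTTP, the transfer protein that loads APOB with lipid, was likewise higher in replicates 4 to 6, with mean log2 signals of 9.97 in replicates 4 to 6 and 9.14 in replicates 1 to 3. APOC4 was detected on 3 arrays. APOF, LPA, the protein of lipoprotein(a), and CETP were not detected on any array.

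Of 20 hepatocyte transcription factors, 14 (70%) were detected, 1 on some arrays and 5 on none. CEBPA, a factor of hepatocyte maturation and growth arrest, had raw signals of 7038, 8052 and 9522 and rank 218. FOXA1 and FOXA2, pioneer factors that open liver enhancers, ranked 419 and 534, CEBPB, of the acute-phase response, ranked 560, and RXRA, partner of many nuclear receptors, ranked 1826. The log2 signals of these 5 genes ranged by 0.19 to 0.35 over the arrays. FOXA2 rests on its brightest probe, at a mean log2 signal of 12.01. Its further probes read 4.37 and 4.36 and were not detected on any array. PROX1 and ONECUT2, factors of early liver development, ranked 4772 and 9311. ONECUT1, its close relative, HNF4G, HHEX, which is needed for the liver bud, NR0B2, a repressor in bile acid feedback, and PPARA, the fatty acid receptor, were at background on all arrays. HNF4G, HHEX and PPARA came near the threshold, with lowest detection p-values of 0.01169, 0.01429 and 0.01429. NR1I3, a receptor of drug response, was detected on 1 array.

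GATA4, the factor targeted in the other samples of the series, was among the dimmest detected genes. Its single probe read 137.1, 141.7 and 168.8, with a mean log2 signal of 5.66 ± 0.33 (SD, n = 6) and rank 9597, with a range of 8643 to 10182 on single arrays. The sets of replicates overlapped. Of 8 GATA factors and cofactors, 5 (62.5%, beside 47.3% of all named genes) were detected. With a detection p under 0.001 on all arrays, 3 were, and GATA4 and GATA2 were not among them. The sets of all 5 overlapped, while those of 49.7% of all detected genes did not. GATA5 was the brightest of them, with raw signals of 636.7, 717.4 and 797.1 and rank 3579, and ZFPM1, a cofactor of GATA proteins, GATA6 and GATA2 ranked 7693, 8267 and 9567. GATA1 and GATA3, of blood cells, and the cofactor ZFPM2 were not detected on any array.

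Enzymes of the urea cycle and of amino acid breakdown were detected in 13 of 19 cases (68.4%), with 2 on some arrays and 4 on none. OAT, which interconverts ornithine and glutamate semialdehyde, ranked 1092, and CBS, the first enzyme of transsulfuration, ranked 1120. Of the urea cycle, ASS1, argininosuccinate synthase, had raw signals of 1594, 1939 and 2499 and rank 1375, and CPS1, which fixes ammonia in mitochondria, had 1065, 1307 and 1508 and rank 2188. OTC, the step after CPS1, and NAGS, which makes the activator of CPS1, were not detected on any array, and ARG1, arginase, was detected on 2. OTC read 105.6 to 119.8. HGD, of tyrosine breakdown, ranked 2089, while TAT, the first step of that pathway, and TDO2, of tryptophan breakdown, were at background and HAL, of histidine breakdown, was detected on 1 array. BHMT, which remethylates homocysteine with betaine, read 355.1, 394.4 and 329.6 in replicates 4 to 6 and 183.0, 183.7 and 197.5 in replicates 1 to 3, without overlap. AGXT, which detoxifies glyoxylate, was also higher in replicates 4 to 6, by 1.06 in mean log2 signal, and PRODH, of proline breakdown, was lower there, with a difference of -0.70.

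Glucose and glycogen genes were detected in 7 of 11 cases (63.6%). TALDO1, of the pentose phosphate pathway, had raw signals of 5116, 5329 and 5614 and rank 397. PYGL, liver glycogen phosphorylase, ranked 2082, SLC2A2, the liver glucose transporter, ranked 2853, and GBE1, the branching enzyme, ranked 4591. The enzymes of gluconeogenesis in this list were not alike in detection. G6PC1, the catalytic subunit of glucose-6-phosphatase, and PCK1, cytosolic phosphoenolpyruvate carboxykinase, were not detected at any probe, and FBP1 was detected on 3 arrays. PCK2, the mitochondrial form of PCK1, was detected at all 3 of its probes, with raw signals of 594.1, 698.8 and 857.9 and rank 3668. GYS2, liver glycogen synthase, read 102.2 to 110.8 and was at background.

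Of 30 P450 and conjugation enzymes, 12 (40%, beside 47.3% of all named genes) were detected, 2 on some arrays and 16 on none. Of the 12 P450 genes among them, 7 were at background on all arrays. The bright members were dehydrogenases and conjugating enzymes, but other members of both kinds were at background. ALDH1A1, which makes retinoic acid, had raw signals of 10973, 11621 and 12834 and rank 120, and ALDH2, of acetaldehyde clearance, ranked 431. The glutathione transferases GSTM1 and GSTA2 ranked 1149 and 1997, and the sulfotransferase SULT1A1 ranked 1223. GSTM1, GSTA2 and SULT1A1 have close paralogs, whose signals were not separated here. The probes of GSTM1 disagreed, with mean log2 signals of 11.12, 7.76 and 6.59. CYP1A1, an aryl hydrocarbon receptor target, read 818.4, 805.0 and 913.4 in replicates 4 to 6 and 591.9, 487.2 and 630.8 in replicates 1 to 3. CYP1A2, its liver-specific neighbour, read 221.8, 213.6 and 219.8 in replicates 4 to 6 and 141.7, 135.3 and 145.1 in replicates 1 to 3, and was detected on 5 of 6 arrays. Both were higher in every one of replicates 4 to 6. CYP3A4, CYP2E1, CYP2C8, CYP2D6, CYP2A6, CYP2B6 and CYP4A11, major drug and fatty acid oxidases of adult liver, and the alcohol dehydrogenase ADH1A were not detected on any array. Among them CYP3A4 read 101.5 to 114.7 and CYP2E1 read 105.9 to 124.8. UGT2B4, of glucuronidation, was detected on 3 arrays, and UGT1A1, UGT2B7, UGT2B10 and UGT2B15, of the same reaction, were not detected on any array. The sulfotransferase SULT1E1 was at background too.

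The CYP3A genes were not alike in detection. CYP3A7, the P450 that prevails in fetal liver, was detected on all 6 arrays, with raw signals of 175.9, 166.0 and 158.2 in replicates 4 to 6 and 216.6, 187.1 and 184.9 in replicates 1 to 3. CYP3A5, its neighbour, read 196.6, 191.1 and 179.5 in replicates 4 to 6 and 245.9, 242.5 and 276.5 in replicates 1 to 3, and was detected on all 6. The CYP3A7 signals lay not far above the lowest detected raw signal of 136.1 to 140.2. Whether the CYP3A7 probe also reads RNA of the brighter CYP3A5 was not tested. CYP3A4, which prevails in adult liver, was at background, with no detection p under 0.23636. The RefSeq start regions of CYP3A7 (chr7:99735147-99735446) and CYP3A4 (chr7:99784135-99784434), both on the minus strand of GRCh38.p14 and printed in the direction of the gene, are shown because 1 gene of this close pair was detected and the other was not. Capitals mark TATAAA.
CYP3A7: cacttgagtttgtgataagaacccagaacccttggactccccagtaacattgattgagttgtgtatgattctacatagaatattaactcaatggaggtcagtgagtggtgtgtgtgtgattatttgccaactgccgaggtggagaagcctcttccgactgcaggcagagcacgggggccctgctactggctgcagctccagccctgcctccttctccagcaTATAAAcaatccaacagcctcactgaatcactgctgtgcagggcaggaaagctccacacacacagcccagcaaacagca
CYP3A4: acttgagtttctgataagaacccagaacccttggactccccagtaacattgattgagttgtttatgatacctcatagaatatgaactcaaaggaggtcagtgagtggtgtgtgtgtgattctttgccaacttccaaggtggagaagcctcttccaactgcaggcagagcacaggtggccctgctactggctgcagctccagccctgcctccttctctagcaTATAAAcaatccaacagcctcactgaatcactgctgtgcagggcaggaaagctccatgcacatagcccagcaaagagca
Aligned end to end, they shared 282 bases, with 17 mismatches and 2 gap positions, an identity of 93.7%. Each held TATAAA at -29 and no match to TTNNGNAA.

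Bile acid and transporter genes were the liver list with the fewest members detected, 6 of 20 (30%), with 3 on some arrays and 11 on none. ASGR1 and ASGR2, the subunits of the asialoglycoprotein receptor of hepatocytes, were bright, with raw signals of 5624, 5848 and 6523 and 4657, 4780 and 4958 and ranks 338 and 456. CYP27A1, of the acidic pathway of bile acid synthesis, ranked 2639, and ABCC2, which exports conjugated bilirubin into bile, ranked 4011. The remaining members lay low. CYP7A1, the rate-limiting enzyme of the classical pathway, read 98.3 to 111.1, and CYP8B1, CYP7B1 and BAAT, which conjugates bile acids, were not detected on any array. The bile salt export pump ABCB11, the phospholipid transporter ABCB4, the sterol transporter ABCG5 and the uptake transporter SLCO1B1 were at background too. SLC10A1, which takes up bile salts from blood, was detected and lay near the lowest detected signal in replicates 4 to 6 only. It read 145.6, 153.2 and 149.0 in replicates 4 to 6 and 259.8, 309.8 and 294.9 in replicates 1 to 3. SLC38A4, an amino acid transporter of liver, was also lower in replicates 4 to 6, with a difference in mean log2 signal of -0.79. ABCG8 was detected on 5 arrays, SLC22A7 on 3 and SLC27A5 on 2.

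**Figure D4:**
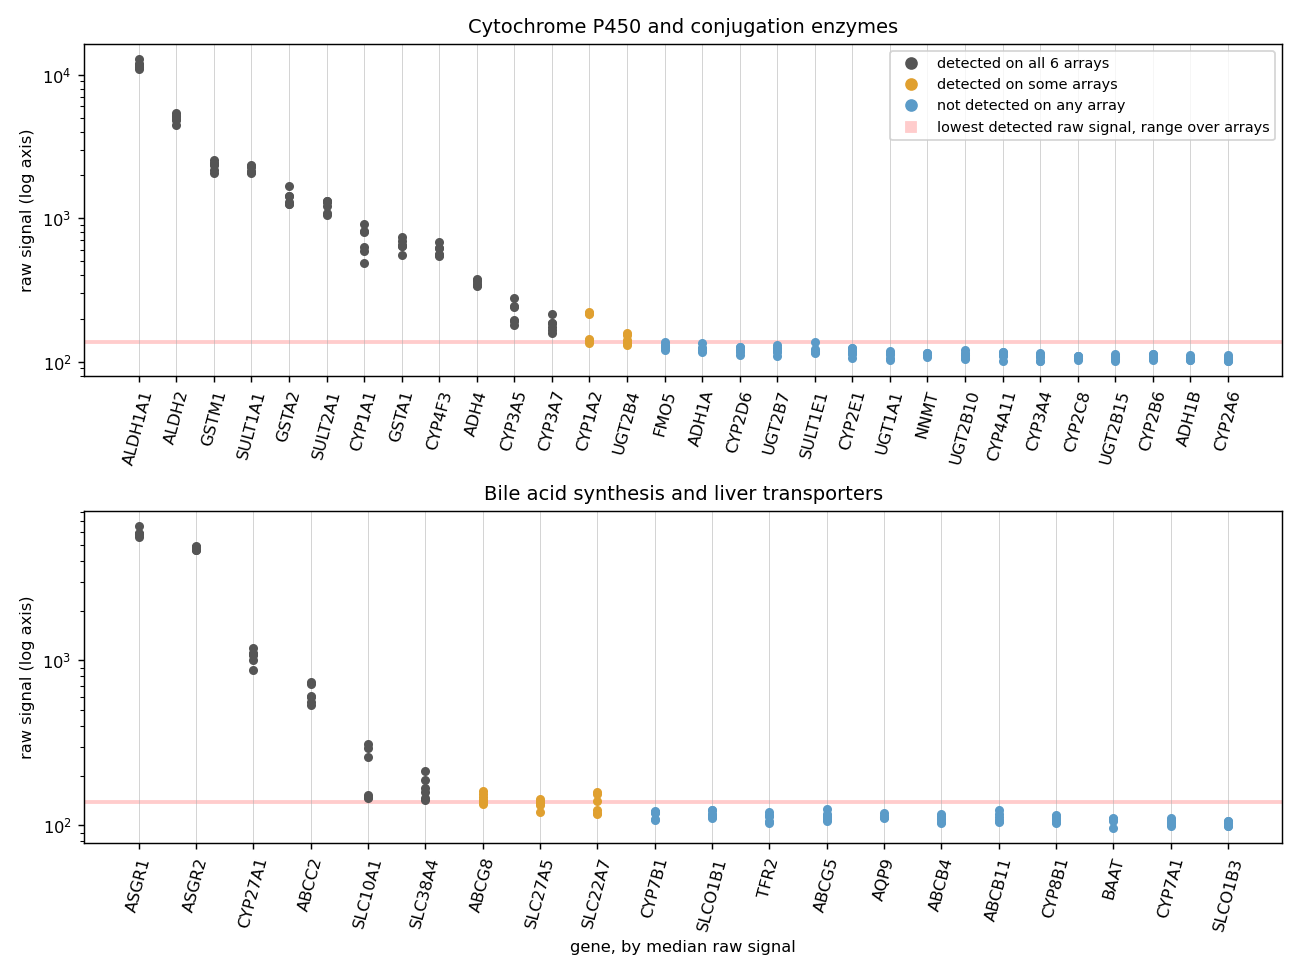
Raw signal (y axis, log scale) on each of the 6 NT siRNA arrays of P450 and conjugation enzymes (top) and of bile acid and transporter genes (bottom), ordered by median and coloured by detection. The pink band is the lowest detected raw signal, 136.1 to 140.2 over arrays; CYP3A4, CYP2E1, CYP7A1 and ABCB11 lay below it, and ALDH1A1, ASGR1 and ASGR2 lay far above it.

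Epithelial genes were detected in 21 of 28 cases (75%, beside 47.3% of all named genes), and 3 of them stood in the brightest 1%. KRT8, the keratin of simple epithelia, had raw signals of 11869, 13136 and 15760 and rank 93. CDH17, liver-intestine cadherin, had 9806, 11603 and 12867 and rank 122, and CDH1, E-cadherin, had 3634, 4152 and 4972 and rank 535. KRT18, the usual partner of KRT8, was not detected at either of its 2 probes, which read 109.7 to 121.8 and 109.4 to 116.1. KRT7, a bile duct keratin, the tight junction gene OCLN and the epithelial regulators ESRP2, GRHL2 and OVOL1 were at background as well, and CLDN4 was detected on 2 arrays. In replicates 4 to 6, 13 of the 21 detected genes lay wholly below replicates 1 to 3 and 1 wholly above, beside 23.6% and 26.1% of all detected genes. The widest were CGN, cingulin of tight junctions, the protease inhibitor SPINT1 and CLDN7, with differences in mean log2 signal of -0.62, -0.53 and -0.53.

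Mesenchymal and stellate cell genes were detected in 16 of 36 cases (44.4%), near the share of all genes, with 3 on some arrays and 17 on none. CDH2, N-cadherin, which hepatocytes also carry, was the brightest, with raw signals of 7177, 7711 and 8058 and rank 227, so both cadherins were bright in the same cultures. ACTA2, smooth muscle actin, ranked 490 and read 3524, 3876 and 3589 in replicates 4 to 6 and 5484, 5261 and 5878 in replicates 1 to 3. TAGLN, an actin-binding protein of smooth muscle, ranked 654, and the fibrillar collagen genes COL5A2 and COL1A2 ranked 2018 and 2950. All 4 were lower in each of replicates 4 to 6, COL5A2 the furthest, with a difference in mean log2 signal of -1.28. COL6A3, a chain of microfibrillar collagen VI, lay the other way and had the widest range of all detected genes, 2.79 on the log2 scale. It read 562.2, 592.4 and 622.4 in replicates 4 to 6 and 186.3, 187.4 and 179.9 in replicates 1 to 3. These values are from the brighter of its 2 probes, with a difference in mean log2 signal of 2.51. The other probe, detected on 5 arrays, differed in the same direction by 2.80. RGS5, a pericyte gene, was lower in replicates 4 to 6, with a difference of -1.10. In all, 11 of the 16 detected genes lay wholly below in replicates 4 to 6 and 2 wholly above. Of all detected genes, 23.6% lay wholly below and 26.1% wholly above. COL3A1, COL5A1, the proteoglycans DCN and LUM, POSTN, THY1, CDH11 and CNN1, genes of fibroblasts or smooth muscle, were not detected on any array. COL1A1 and SNAI2, a factor of epithelial-mesenchymal transition, were detected on 2 arrays each, and PDGFRA on 5.

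Of 31 Wnt and beta-catenin targets and regulators, 24 (77.4%, beside 47.3% of all named genes) were detected. A further 2 were detected on some arrays and 5 on none. DKK1, a secreted Wnt inhibitor and target, had raw signals of 13761, 14975 and 16334 and rank 74. CCND1, cyclin D1, ranked 206. The feedback genes AXIN2, of the beta-catenin destruction complex, and SP5, a transcription factor target, had 2678, 3178 and 3527 and 2619, 2969 and 3711, with ranks 798 and 841, and TNFRSF19 ranked 963. CTNNB1, beta-catenin itself, read 360.0, 585.5 and 645.4 at the brightest of 7 probes, with rank 4340; 2 of its probes were detected on all arrays. Its sets overlapped. CD44, an adhesion receptor, and FZD5, a Wnt receptor, were lower in replicates 4 to 6, with differences in mean log2 signal of -0.78 and -0.92. TCF7L1, a repressor of the pathway, the inhibitor WIF1, the growth factor genes BMP4 and FGF19 and LECT2, a beta-catenin target of liver, were not detected on any array. NOTUM was detected on 4 arrays and RHBG, an ammonium transporter of pericentral hepatocytes, on 3.

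Tumour and growth control genes were detected in 33 of 43 cases (76.7%, beside 47.3% of all named genes). Another 4 were detected on some arrays and 6 on none, and 13 of the 43 stood in the brightest 10%. CDK4, the kinase partner of cyclin D1, had raw signals of 5390, 5584 and 6482 and rank 353. YAP1, the effector of Hippo signalling, had 2913, 3556 and 4041 and rank 680. CDKN1A, the p21 inhibitor of the cell cycle, read 3129, 2869 and 3191 in replicates 4 to 6 and 4918, 5033 and 5015 in replicates 1 to 3, and BCL2L1, an inhibitor of apoptosis, ranked 623. A further CDKN1A probe, at a mean log2 signal of 4.637 against 11.905, was not detected on any array. A further BCL2L1 probe was detected at 5.989 against 11.845. MYCN, an oncogene of embryonal tumours, was higher in replicates 4 to 6, with 2127, 2125 and 1981 against 1112, 1150 and 1350 in replicates 1 to 3, and ranked 1780. MDM2, a ubiquitin ligase and p53 target, ranked 8075 with overlapping sets. TERT, the catalytic subunit of telomerase, was not detected at either of its 2 probes, and TERC, its RNA, was detected on 4 arrays. The receptor genes IGF1R, INSR, FGFR1 and KIT and the oncogene MYCL were at background on all arrays. CDKN2A was detected on 5 arrays, and CDKN1C, an imprinted inhibitor of growth, and FGFR2 on 3 each.

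A published 16-gene signature separates hepatoblastomas with hepatocyte-like features, class C1, from proliferating tumours with immature features, class C2, by genes that are high in 1 class. All 8 of its C2 genes were detected: RPL10A, AFP, DLGAP5, IGSF1, BUB1, E2F5, DUSP9 and NLE1. DLGAP5 and BUB1, of the mitotic spindle, ranked 1755 and 2600, and E2F5, a cell cycle factor, was higher in replicates 4 to 6 by 0.63 in mean log2 signal. Of 7 C1 genes measured, ALDH2, C1S and HPD were detected, APOC4 was detected on 3 arrays, and CYP2E1, the water channel AQP9 and GHR, the growth hormone receptor, were at background. NLE1 was dim, with raw signals of 194.7 to 225.2 at its brightest probe. The counts of both classes are small and were not tested against the 47.3% of all named genes detected. No tumour was measured beside these cells, so no class was assigned. Of 21 cancer-testis and germ cell genes, 1 was detected (4.76%, beside 47.3% of all named genes). It was PAGE4, with raw signals of 175.8, 210.4 and 222.4, and the count was 0 at a detection p under 0.001. XAGE1B was detected on 1 array. The genes MAGEA1, MAGEA3, MAGEA4, MAGEA6, MAGEA12, MAGEB2, MAGEC1 and MAGEC2, silent in most adult tissues outside the testis, were not detected on any array.

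Markers of other cell types were at background for most endothelial, erythroid and lymphocyte genes, while the macrophage and cholangiocyte lists held more detected genes. Of endothelial, erythroid and lymphocyte markers, 8.33%, 0% and 18.2% were detected, beside 47.3% of all named genes. Of 12 endothelial markers 1 was detected, PECAM1, with raw signals of 562.0, 582.8 and 670.0, while CDH5, VWF, KDR, TEK, FLT1, STAB2, LYVE1 and CLEC4G were not. Of 12 erythroid markers 0 were detected; EPOR passed on 5 arrays, so 1 marker was detected without replicate 6, and HBA1, HBA2, HBB and HBD were at background. Of 11 lymphocyte markers, CD3D and CD8A were detected and CD4 was detected on 2 arrays. PTPRC, the pan-leukocyte antigen, CD3E, CD2, MS4A1, CD79A, NKG7, GZMB and IGLL1 were not detected on any array. CD3D, a chain of the T cell receptor complex, read 1201, 1373 and 1183 in replicates 4 to 6 and 2464, 2434 and 2531 in replicates 1 to 3. Of 13 macrophage markers, CD74, CD68, CSF1R, CD14 and AIF1 (38.5%, beside 47.3% of all named genes) were detected, and CD163 was detected on 3 arrays. MARCO, VSIG4, TYROBP, LYZ, C1QA, C1QB and FCGR3A were not detected on any array. The summed raw signal of the macrophage list was 3822 to 3944 in replicates 4 to 6 and 4440 to 4739 in replicates 1 to 3, and that of the lymphocyte list was 2419 to 2661 in replicates 4 to 6 and 3713 to 3830 in replicates 1 to 3. CD3D made up most of the gap in the lymphocyte list, of which 8 genes were at background. The sums of the endothelial, erythroid and cholangiocyte lists overlapped between the sets, with 1779 to 1818, 1389 to 1442 and 23020 to 24548 in replicates 4 to 6 and 1758 to 1900, 1402 to 1427 and 23791 to 25110 in replicates 1 to 3. Of 13 cholangiocyte markers, 8 (61.5%) were detected, led by EPCAM and KRT19, with ANXA4, TFF3 and SOX9 at ranks 1550, 4080 and 4318, and KRT7, MUC1, SPP1 and GGT1 were not.

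Heart and gonad genes, some of them known targets of GATA factors, were detected in 4 of 21 cases (19%, beside 47.3% of all named genes). AMHR2, the receptor of anti-Müllerian hormone, had raw signals of 2303, 2611 and 2756 and rank 1008. NPPB, the B-type natriuretic peptide of heart muscle, read 513.9, 583.5 and 532.3 in replicates 4 to 6 and 1693, 1562 and 1765 in replicates 1 to 3, a difference in mean log2 signal of -1.78. TNNC1, a troponin, and NKX2-5, a heart transcription factor, ranked 4872 and 7633. NPPA, MYH6, MYH7, TNNI3, TBX5, HAND1, HAND2 and MEF2C, of heart muscle and its development, were not detected, and CYP11A1, of steroid synthesis, was detected on 1 array. All 14 reference genes were detected; ACTB ranked 22 and GAPDH ranked 125, with SDs of 0.07 and 0.06 on the log2 scale.

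The sets did not overlap in 49.7% of detected genes, but few genes differed by 2-fold or more. The median SD of a detected gene was 0.14 over the 6 arrays and 0.0924 within the sets. Of the 9474 genes, 41 were at least 2-fold higher in replicates 4 to 6 and 86 at least 2-fold lower. After COL6A3, the widest ranges were those of LRP2, the endocytic receptor megalin, at 8.27 in replicates 4 to 6 and 10.39 in replicates 1 to 3, SLC10A1, CFI, AKR1B10, an aldo-keto reductase, at 5.65 in replicates 4 to 6 and 7.41 in replicates 1 to 3, and HSD3B1, a steroid dehydrogenase, at 10.03 in replicates 4 to 6 and 11.81 in replicates 1 to 3 on the log2 scale. C4BPB, PLPPR1, LFNG, a modifier of Notch receptors, and SNORA12, a small nucleolar RNA, followed. PLPPR1, LFNG and SNORA12 were higher in replicates 4 to 6. Of 261 listed genes detected at their brightest probe, 80 lay wholly above and 90 wholly below in replicates 4 to 6. Over all 9474 detected genes, 26.1% lay wholly above and 23.6% wholly below, and the listed genes were not tested against these shares. Among lists with at least 5 detected genes, the median difference was lowest for complement genes, at -0.71, followed by macrophage markers at -0.53 and mesenchymal genes at -0.33. It was highest for apolipoprotein genes, at 0.28, followed by the 16-gene signature at 0.27 and coagulation genes at 0.26, beside 0.018 over all detected genes. The 2 detected lymphocyte markers had a median of -0.91, and the single detected cancer-testis gene differed by 0.44.

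**Figure D5:**
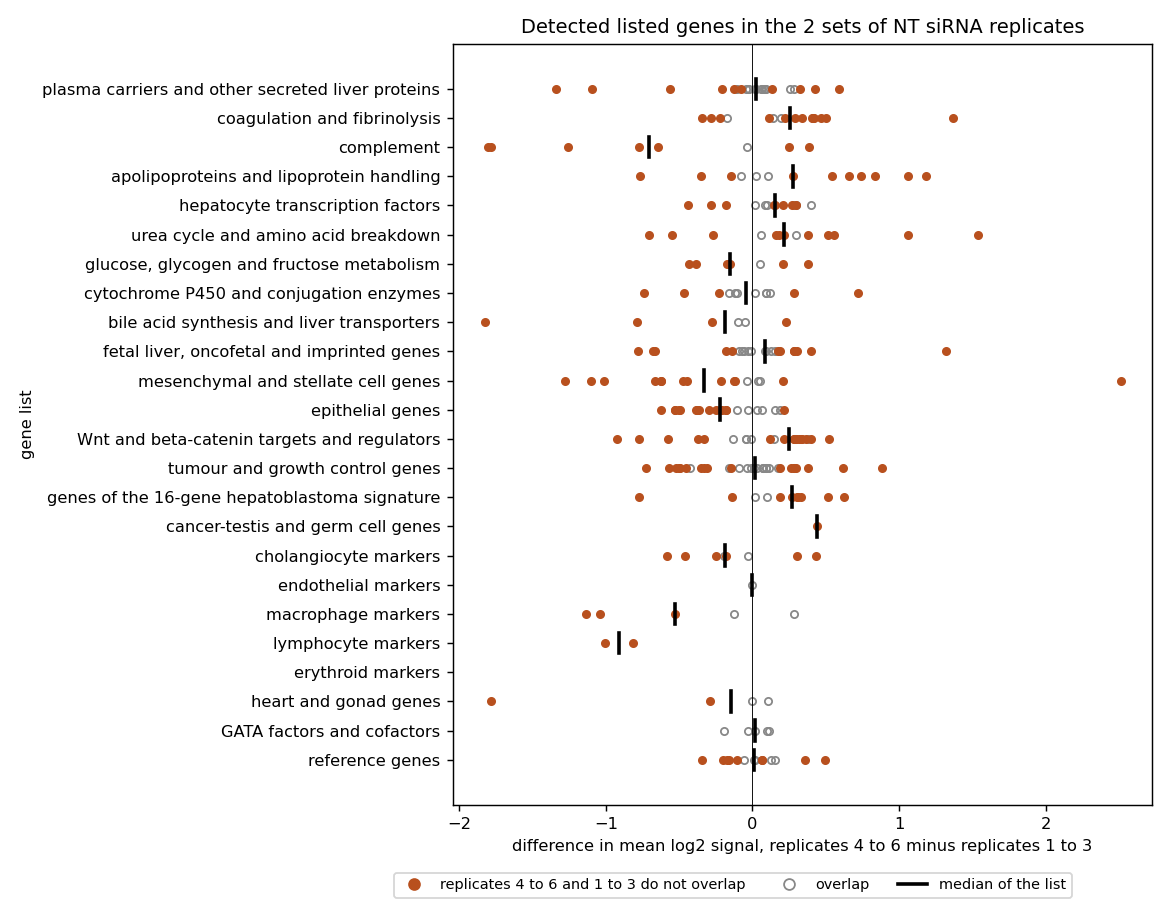
Difference in mean log2 signal, replicates 4 to 6 minus replicates 1 to 3 (x axis), of each detected gene of each list (y axis). Filled points are genes whose sets do not overlap and bars are list medians; the bar lies at -0.71 for complement genes and at -0.33 for mesenchymal genes, and COL6A3 is the point at the far right.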

How the data were processed

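Total RNA of 6 HUH6 samples given NT siRNA was hybridised to 6 beadchip arrays, per the labels. The deposited scanner values are signal intensity on a linear scale, which the submitters' processing notes credit to GenomeStudio with no version. Each deposited signal has its own detection p-value, per the file headers. A deposited table of normalised log2 values, made by a method that the sources used here do not give, served as an alternative. Gene symbols came from the annotation of the platform and were brought up to date by gene ID with RefSeq names (GRCh38.p14). Of the probes, 30112 had 1 symbol, 8 several and 17986 none, and 30073 matched an ID. Named probes covered 20045 genes.

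The neqc function of limma 3.58.1 (R 4.3.3) estimated background from the detection p-values, added an offset of 16, quantile normalised the 6 arrays and gave log2 signals; it was first tested on simulated data. The brightest probe stood for its gene in signals and ranks, while any probe could make a gene detected. No test between groups was made. The median raw signal was 117.4 to 121.2 per array, and the number of arrays limits the precision. No 2 arrays held the same values: at most 216 of 48106 probes read alike between 2 arrays.

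The members and the 24 lists were chosen with earlier results of these data known. Of 509 list symbols, 33 were not analysed here. By rule the text names AFP, ALB, GPC3, DLK1, GATA4, ACTB and GAPDH. In each list it names up to 5 detected genes with the highest signal, up to 8 not detected, up to 4 detected on some arrays and up to 3 with the largest SD, and over all genes the 20 brightest and the 10 with the widest range. PEG3, LIN28A, IGF2BP2, IGF2BP3, DUSP9, BUB1, NLE1, UGT1A1, UGT2B7, UGT2B10, UGT2B15 and SULT1E1 were added after their values were seen. Alternatives changed the detection threshold, the number of arrays required, the probe rule, the normalisation and the source of the values, and left out each replicate or each set of replicates. Figures were drawn with matplotlib 3.10.9.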

Additional observations from a re-analysis of the deposited data

Results flagged for a closer look

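In 14 of 320 genes looked at, 1 array stood far from the other 5 by Dixon's criterion. For 6 values of 1 normal population, chance flags about 1 gene in 20, here about 16. Because the arrays fell into 2 sets, that rate need not hold, so the number of flags cannot be judged against it. Of the 14 flagged genes, 11 were at background on every array, where the log2 signal carries little order. They were SAA1 (4.69 in replicate 5), C4A (4.71 in replicate 3), MEST (4.42 in replicate 6), THY1 (4.44 in replicate 5), TCF7L1 (4.71 in replicate 5), WIF1 (4.92 in replicate 5), FGF19 (4.98 in replicate 4), KIT (4.76 in replicate 4), VWF (4.58 in replicate 2), HBA1 (4.31 in replicate 3) and MEF2C (4.61 in replicate 6). CTNNB1 read 8.07 in replicate 1 and 8.82 to 9.16 on the other arrays. GAPDH read 13.59 in replicate 4 and 13.43 to 13.48 on the others, and S100A10 read 14.35 in replicate 3 and 14.23 to 14.26 on the others.

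Outside the named genes, 2574 of 17994 probes without a single gene symbol (14.3%) were detected on all 6 arrays and enter no result above.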

How the results depend on the processing

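The count of detected named genes (9475) was 8062 with a detection p under 0.001 and 10347 under 0.05, and 9512 to 9532 when each replicate was left out in turn. It was 9766 in replicates 4 to 6 alone and 9768 in replicates 1 to 3 alone. Listed genes detected (262) ranged from 234 to 283 over all alternatives, and the listed genes in the brightest 10% (95) from 87, with the mean of the probes of a gene, to 99. Of 288 list counts, 282 stayed within 1.5 times. The exceptions were the erythroid list, with 1 detected in place of 0 under a detection p of 0.05, with at least 3 arrays, without replicate 6 and in replicates 1 to 3 alone, and, under a detection p of 0.001, the cancer-testis list, with 0 in place of 1, and the GATA list, with 3 in place of 5. Listed genes without overlap between the sets (170) were 166 with arrays scaled to equal medians, which shifted the median gene by -0.017 to 0.026 on the log2 scale. In the main analysis, 49.7% of all detected genes did not overlap. Of 4480 ranks of single genes, 4292 moved by less than 1 SD over the arrays; of the others, 143 moved with the mean of the probes. Genes near the lowest detected signal, GATA4 and IGF2 among them, are limited by signal over background. No paired analysis was possible because no groups were compared.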
